A study of Homo sapiens with 4 samples.

Results

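FDX1, the mitochondrial ferredoxin that cuproptosis depends on, was set beside 9 other genes of electron transfer to ferredoxin and of protein lipoylation: FDX2, FDXR, LIAS, LIPT1, LIPT2, DLAT, DLD, PDHA1 and PDHB. A cluster of poly(A) sites (a PAC) was counted for one of these genes when its dominant site, the position with the most tags, lay inside the gene on the same strand. This gave 15 PACs of 17627 and 10 genes of the 12067 that held a PAC. FDX1, FDX2, FDXR, LIPT1, LIPT2, DLD and PDHB had 1 PAC each, LIAS and PDHA1 had 2, and DLAT had 4.

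Cuproptosis is a form of cell death in which copper binds lipoylated mitochondrial enzymes, which then aggregate while iron-sulfur cluster proteins are lost. Lipoylation attaches lipoic acid to a few enzymes, among them the E2 subunit of pyruvate dehydrogenase. FDXR takes electrons from NADPH and passes them to the ferredoxins FDX1 and FDX2, and the lipoyl synthase LIAS needs electrons to build the lipoyl group. The 3′ UTR that a transcript carries is set by where it is cleaved, so a gene with several poly(A) sites makes mRNAs that differ in their regulatory sequence.

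KYSE30 and TE-1 are established human esophageal squamous cell carcinoma (ESCC) lines. PAS-seq, which reads the 3′ ends of polyadenylated RNA, was done on 4 libraries of these lines. In each line, 1 library was made after treatment with 20 mM l-lactate for 24 h and 1 from PBS controls, with no further replicate. The control samples carry other line names (KYSE32 and TE-3) in one label, whereas the sample titles name KYSE30 and TE-1, and the titles were followed.

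The libraries held 7174991 to 10393799 tags. Spearman's rho of TPM (tags scaled to a fixed library total) over PACs was 0.980 within each line and 0.805 to 0.814 between lines. KRT8, KRT18 and EPCAM, markers of epithelium, were listed in all 4 libraries, while CDH1 was listed at 1.30 TPM in TE-1 with l-lactate and not listed in the TE-1 control. KRT5, KRT14, TP63, DSG3 and PKP1, 5 of 8 squamous markers, were listed in none, SOX2 and KRT6A were listed in KYSE30 alone, and KRT17 in TE-1 alone. Of 4 markers of other cells, only COL1A1 was listed, at 4.84 and 5.39 TPM in the TE-1 libraries. Fewer copies per cell and fewer cells carrying the RNA cannot be told apart in such bulk libraries.

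A PAC made of 1 site was listed only from about 3 TPM (the lowest such value was 3.07 to 3.10 in the 4 libraries), so a PAC that is not listed is not a 0. No ratio is given against a library that does not list the gene. Each tag marks 1 transcript end and TPM was not divided by length. Intervals at 95% cover counting error only.

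The dominant sites of FDX1, DLD and DLAT carry most of what follows, and the sequence around the poly(A) signal before each follows, 5′ to 3′, from the GRCh38 reference. Each run holds 30 bases and the signal hexamer is in capitals. The first set shows FDX1 (chr11, plus strand), whose 4 dominant sites lay 97, 229, 781 and 788 nt past the stop codon, all in exon 4 of its MANE transcript. The last 2 sites share a hexamer.
FDX1, signal of the site at 97 nt, chr11:110462523-110462552: tttcttaaagtgATTAAAtgagaacatgga
FDX1, signal of the site at 229 nt, chr11:110462665-110462694: tgtcaatcaaatATTAAAaaatagttaatg
FDX1, signal of the sites at 781 and 788 nt, chr11:110463210-110463239: ataatgctgattTATAAAtctctgcctata
The second set shows DLD (chr7, plus strand), whose dominant site differed between the lines.
DLD, signal of the site at 484 nt, chr7:107919709-107919738: gattcaaatgtcTATAAAccgaactgatgt
DLD, signal of the site at 706 nt, chr7:107919933-107919962: tgaagatactgaAATAAAcgtcttaaatat
The third set shows DLAT (chr11, plus strand), with its most proximal PAC and the PAC whose share differed most in KYSE30.
DLAT, signal of the site at 94 nt, chr11:112062591-112062620: tatttatatgttATTAAAcaggtggttctt
DLAT, signal of the site at 1330 nt, chr11:112063836-112063865: tttatgtgttttAATAAAcgtttgaaatta

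None of the 4 FDX1 sites had the canonical AAUAAA within 50 nt upstream. The sites at 97 and 229 nt followed AUUAAA, 25 and 15 nt after the hexamer, and those at 781 and 788 nt followed UAUAAA, 22 and 29 nt after it. The hexamers sought on the transcribed strand were AAUAAA, then AUUAAA, then the nearest of 11 variants (UAUAAA or AGUAAA or CAUAAA or GAUAAA or UUUAAA or ACUAAA or AAGAAA or AAUAUA or AAUACA or AAUGAA or AAUAGA), and overlapping matches were allowed. Over all 20083 dominant sites, 65.8% had AAUAAA, 16.7% had AUUAAA without it and 2.24% had UAUAAA as the nearest variant. Of the 22 dominant sites of the 10 genes, 9 had AAUAAA, 6 had AUUAAA and 7 had UAUAAA, though some of these sites share a hexamer.

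UGUA, the element bound by the cleavage factor subunit NUDT21, lay within 100 nt upstream of 12 of the 22 sites, against 56.8% of all dominant sites. It occurred once before each of the FDX1 sites at 781 and 788 nt and was not found before those at 97 and 229 nt. A match in this window is not shown to be a bound site. None of the 22 sites was followed by 12 or more A in the next 20 nt, a mark of possible priming on an internal A-run, against 0.976% of all dominant sites.

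The genes differed widely in level. In the TE-1 control, PDHA1 stood at 403 TPM (interval 391 to 415), DLD at 203 (194 to 212), PDHB at 106 (99.6 to 112), DLAT at 79.8 (74.4 to 85.4) and FDX1 at 36.8 (33.2 to 40.6), and none of these intervals overlapped. FDXR at 11.6 TPM (9.66 to 13.9) and FDX2 at 9.91 (8.09 to 12) did not differ beyond counting error, nor did LIPT2 at 6.16 and LIPT1 at 4.91. In the KYSE30 control the order was DLD, PDHA1, PDHB, FDXR, FDX1, DLAT, FDX2, LIPT1 and LIPT2, and FDXR, FDX1 and DLAT, at 33.1, 29.5 and 29.1 TPM, had overlapping intervals. FDX1 ranked in place 4 of the 10 genes in KYSE30 with l-lactate and in place 5 in the other libraries, and its mean of 35.9 TPM was at or above that of 63.1% of genes with a PAC.

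**Figure D1:**
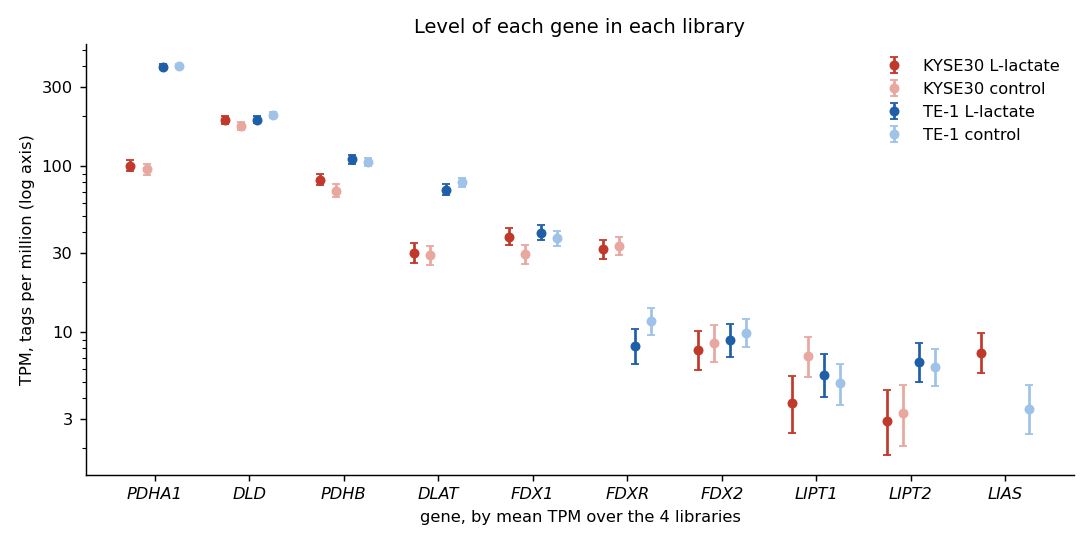
Level of the 10 genes in the 4 libraries as TPM on a log axis, with exact 95% counting intervals (vertical bars) and 1 point per library. PDHA1 and DLAT sit higher in TE-1 and FDXR sits lower, FDX1 lies between 29.5 and 39.8 TPM in all 4 libraries, and no point is drawn where LIAS was not listed.

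FDX1, which hands electrons on for lipoylation and steroid synthesis, was listed at 37.6 TPM with l-lactate and 29.5 TPM in the control of KYSE30, and at 39.8 and 36.8 TPM in TE-1. Its level was thus higher with l-lactate in both lines, by a ratio of 1.28 (interval 1.06 to 1.53) in KYSE30 and 1.08 (0.932 to 1.26) in TE-1. The KYSE30 interval lay above 1 and that of TE-1 included it, and the difference between the lines was not tested. Across both lines the difference was 0.23 on the log2 scale (SE 0.12), which did not pass the test (limma on log2(TPM + 1), adjusted p = 0.550). The paper reports the opposite direction, a decrease of FDX1 mRNA with l-lactate, and the reason for this difference was not tested.

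The dominant site of FDX1 was a different one in each of the 4 libraries. The PAC of FDX1 spanned 697 nt (chr11:110462560-110463256) in the 3′ UTR and was wider than 99.4% of all PACs. Its dominant site lay 229 nt past the stop codon in the KYSE30 control and 781 nt past it with l-lactate, a move of 552 nt downstream. In TE-1 it lay at 97 nt in the control and at 788 nt with l-lactate, a move of 691 nt downstream. The 2 control libraries thus had different dominant sites, 132 nt apart, while the 2 l-lactate libraries had sites 7 nt apart.

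FDX1 was the 1 PAC of 9 tested among these genes in KYSE30 whose dominant site moved by more than 24 nt, where 1.43% of 10849 PACs did, and the 1 of 12 in TE-1, where 1.24% of 10769 PACs did. Of 8909 PACs tested in both lines, 11 moved downstream by more than 24 nt in both, and 4 moved upstream in both. FDX1 was among the 11. The paper had already named FDX1 as lengthened in both lines from these same libraries, so its place in these counts adds no separate support. By RT-qPCR, apart from these libraries, the paper also reported more use of the distal FDX1 site with l-lactate. Only a PAC over 24 nt wide can move so far, and of these 5.10% moved in KYSE30 and 4.42% in TE-1. Of PACs at least 500 nt wide, as that of FDX1 is, 15 of 307 moved in KYSE30 (7 downstream, 8 upstream) and 22 of 296 in TE-1 (10 downstream, 12 upstream). Among the 34 PACs over 24 nt wide in each line with under 25% of their tags at the dominant site in both libraries, as in FDX1, 6 moved in KYSE30 (4 of them downstream) and 7 in TE-1 (2 downstream).

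No FDX1 site held most of the tags. The dominant site held 56 of 270 tags with l-lactate (20.7%) and 48 of 219 in the control (21.9%) of KYSE30, and 80 of 337 (23.7%) and 79 of 382 (20.7%) in TE-1. The files give the tags of the dominant site alone, so another site held at most that number. The site at 788 nt held 9.45 TPM in TE-1 with l-lactate and at most 7.6 TPM in the control, a ratio of at least 1.24, and the counting interval of this bound reached from 0.899 to 1.72. The site at 781 nt held 7.81 TPM in KYSE30 with l-lactate and at most 6.46 TPM in the control, a ratio of at least 1.21 (0.806 to 1.81). Neither bound was beyond counting error. As shares of the FDX1 tags, the bounds were a difference of at least 3.06 points for the site at 788 nt in TE-1 and of at least -1.18 points for the site at 781 nt in KYSE30. The bound of 1.21 also lies below the ratio of 1.28 of the whole PAC, so that in KYSE30 these values do not show a larger share of tags at the site.

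The ends of the FDX1 distribution were nearly the same in all libraries. The position below which 10% of its tags lay was 97 nt past the stop codon in the KYSE30 control and in both TE-1 libraries, and 229 nt in KYSE30 with l-lactate. The position for 90% lay at 788 nt in all 4 libraries, which is the last base of the PAC. It stood there in the controls already, so it could not move downstream with l-lactate and cannot decide whether FDX1 was lengthened. Proximal and distal ends were both in use with and without l-lactate. The nearest annotated end of FDX1 lies 1628 nt beyond the site at 788 nt, and no PAC was listed there. These quantiles and the listed TPM may not cover the same tags. Among PACs over 24 nt wide with more than 90% of tags at 1 site, 39.5% of 1068 had a quantile away from that site, against 0 of 18485 narrower ones.

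**Figure D2:**
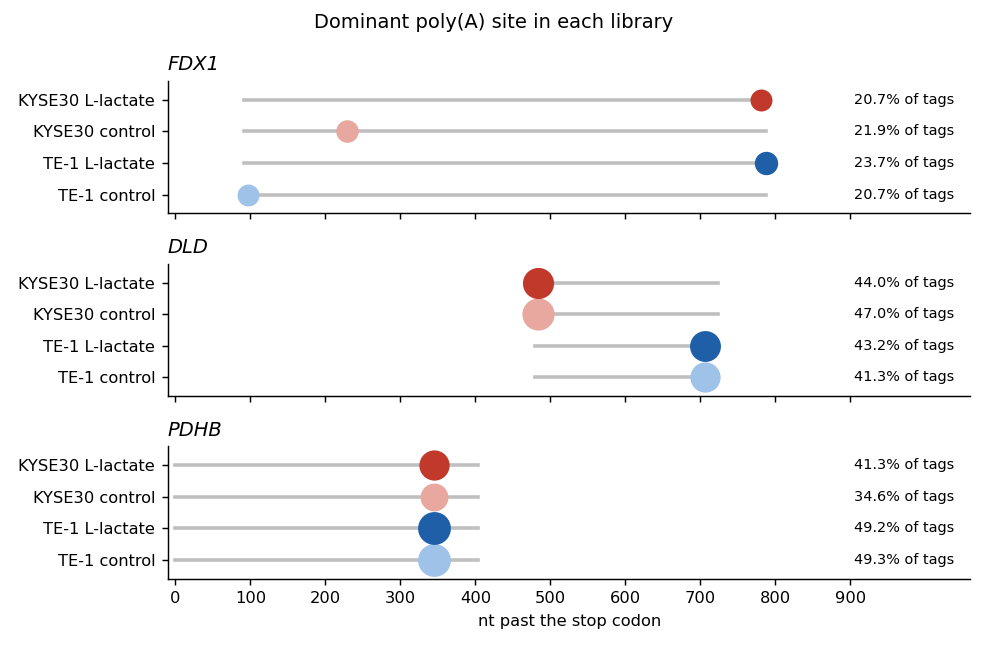
Dominant poly(A) site of FDX1, DLD and PDHB in each library, in nt past the stop codon; the grey line spans the PAC, and the area of the point grows with the share of the PAC's tags at that site, printed at the right. In FDX1 the point lies at 781 or 788 nt with l-lactate and at 229 or 97 nt in the controls, in DLD it differs by line (484 against 706 nt), and in PDHB it lies at 345 nt in all 4 libraries.

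FDX2, the ferredoxin of iron-sulfur cluster assembly, was listed at 7.81 TPM with l-lactate and 8.62 in the control of KYSE30, and at 8.97 and 9.91 in TE-1. Both ratios were 0.906, with intervals of 0.621 to 1.32 and 0.664 to 1.23, so no difference was detectable at this depth. Its dominant site lay 272 nt past the stop codon in KYSE30 with l-lactate and 261 nt past it in the other 3 libraries, sites that share an AAUAAA. The FDX2 PAC (chr19:10310211-10310225, minus strand) also lies within 1 other annotated gene on its strand, so its tags are not certain to come from FDX2 alone.

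FDXR, the reductase that feeds both ferredoxins, had a single site 317 nt past the stop codon (chr17:74862500, minus strand), 1 nt short of an annotated transcript end. It was listed at 31.6 TPM with l-lactate and 33.1 in the control of KYSE30, and at 8.27 and 11.6 TPM in TE-1. Every TE-1 value lay below every KYSE30 value, where 73.6% of all genes were called between the lines (limma, adjusted p under 0.05). The ratio of l-lactate to control was 0.955 (0.794 to 1.15) in KYSE30 and 0.710 (0.521 to 0.961) in TE-1, where 70 tags stood against 121.

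LIAS, which inserts sulfur to make the lipoyl group, was at the edge of detection. It had 2 single-site PACs on chr4, at 39463814, in an intron of the MANE transcript that is 3′ UTR in 2 shorter ones, and at 39477583, which is 468 nt past the MANE stop codon. The first was listed at 4.46 TPM in KYSE30 with l-lactate and 3.46 TPM in the TE-1 control, and the second at 3.07 TPM in KYSE30 with l-lactate. The other libraries did not list them, which allows up to about 3 TPM at each.

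LIPT1, the lipoyl transferase, had 1 site 58 nt past the stop codon (chr2:99163137, plus strand), at an annotated transcript end. It was listed at 3.76 TPM with l-lactate and 7.14 in the control of KYSE30, or 27 against 53 tags, and at 5.55 and 4.91 TPM in TE-1. The ratio was 0.527 (0.319 to 0.853) in KYSE30 and 1.13 (0.744 to 1.71) in TE-1, and the lines lay on opposite sides of 1. The site also falls within 2 other annotated genes on its strand, and LIPT1 leaves the comparison if such PACs are left out. By Fisher's exact test on the tags, adjusted over all genes, the KYSE30 difference was not called. LIPT2 (chr11:74491865-74491878, minus strand), the octanoyl transferase that starts lipoylation, was listed at 2.93 and 3.23 TPM in KYSE30 and 6.61 and 6.16 TPM in TE-1. Its TE-1 control was higher than its KYSE30 control by a ratio of 1.91 (1.18 to 3.19). The dominant LIPT2 site lay 257 nt past the stop codon in both KYSE30 libraries and 270 nt in both TE-1 libraries, 13 nt apart and after a shared UAUAAA, and in TE-1 with l-lactate all 56 tags lay at it.

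PDHA1, PDHB and DLD held the 3 highest levels of the set in every library. PDHA1, the E1 alpha subunit that regulatory kinases phosphorylate, was listed at 101 TPM with l-lactate and 95.6 in the control of KYSE30, and at 398 and 403 TPM in TE-1. PDHB, the E1 beta subunit, stood at 83.1 and 71.2 TPM in KYSE30 and 110 and 106 TPM in TE-1. DLAT, the lipoylated E2 subunit on which copper-induced aggregation was described, stood at 30.1 and 29.1 TPM in KYSE30 and 72.3 and 79.8 TPM in TE-1. All TE-1 values of these 3 genes lay above all their KYSE30 values. How many of all genes separated by line in this way was not counted, and 73.6% of all genes were called between the lines (limma, adjusted p under 0.05).

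DLD, the E3 subunit shared by the lipoylated dehydrogenases, was listed at 190 TPM with l-lactate and 176 in the control of KYSE30, and at 190 and 203 TPM in TE-1, so that the l-lactate libraries of both lines were level. Its level with l-lactate was 1.08 times the control in KYSE30 (1.00 to 1.17) and 0.939 times in TE-1 (0.879 to 1.00). The 244-nt PAC of DLD had its dominant site 484 nt past the stop codon in both KYSE30 libraries and 706 nt past it in both TE-1 libraries, 222 nt apart. In neither line did the dominant site of DLD differ between l-lactate and control. In the KYSE30 control the site at 484 nt held 47.0% of tags (44.4% to 49.8%). In the TE-1 control it held at most 41.3%, the share of the site at 706 nt. With l-lactate its share was higher in KYSE30 by at least 0.782 points, and the TE-1 bound lay inside the KYSE30 interval. Its TPM ratio, KYSE30 to TE-1, was at least 0.987 (0.888 to 1.10) in controls and 1.02 (0.909 to 1.13) with l-lactate. Neither TPM bound was beyond counting error. For the site at 706 nt, TE-1 minus KYSE30 was at least -5.71 points (controls) and -0.782 (l-lactate), which showed no larger share in TE-1.

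Between the control libraries, DLD and FDX1 were the 2 of 9 PACs tested whose dominant sites differed by more than 24 nt, where 2.06% of all PACs did. Between the l-lactate libraries DLD was the 1 of 10, where 1.96% did. Of PACs over 24 nt wide, which alone can differ so far, 6.86% did between the controls and 6.56% between the l-lactate libraries. The 10% and 90% positions of DLD were the same in all 4 libraries, at 484 and 706 nt, so that by this measure both sites were in use in both lines. The limit given for FDX1 holds here too, since in PACs over 24 nt wide the quantiles and the listed TPM may not cover the same tags.

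PDHB had its dominant site 345 nt past the stop codon (chr3:58427689, minus strand) in all 4 libraries. That site held 246 of 596 tags with l-lactate and 183 of 529 in the control of KYSE30, or 41.3% against 34.6%, a difference of 6.68 points (1.00 to 12.3). TPM at the site was higher by a ratio of 1.39 (1.14 to 1.69), while the remaining tags of the PAC gave 1.05 (0.90 to 1.22). In TE-1 the shares were 49.2% and 49.3%, and the ratio at the site was 1.04 (0.916 to 1.18). PDHB was 1 of 6 PACs with an unmoved dominant site whose share differed by at least 5 points in KYSE30, where 22.2% of all such PACs did.

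DLAT was cleaved at 4 separate places in its 3′ UTR, at 94, 677, 1330 and 1854 nt past the stop codon. In KYSE30 it had 216 tags in each library, and the PAC at 1330 nt held 81 of them with l-lactate (37.5%, 31.3% to 44.1%) and 55 in the control (25.5%, 20.1% to 31.7%). The difference of 12 points (3.28 to 20.5) made DLAT the 1 of 2 genes tested past 10 points in KYSE30, where 10.4% of 2191 genes with 2 or more PACs passed. For the PACs at 94 and 677 nt the share with l-lactate minus control was -6.48 points (-15.6 to 2.82) and -5.56 points (-13.7 to 2.71).

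In TE-1 the DLAT shares lay close together. Under l-lactate and PBS, the PAC at 94 nt held 37.7% and 38.7%, that at 677 nt 24.7% and 24.8%, and that at 1330 nt 28.6% and 27.7%, where the difference was 0.851 points (-3.81 to 5.58). The distal PAC tested for DLAT in TE-1 was the one at 1854 nt, which was not listed in KYSE30, and its share differed by 0.302 points, so that the calls of the lines rest on different PACs. None of the 2 genes tested passed 10 points in TE-1, where 11.6% of 2220 genes did. Among 11 PACs with an unmoved dominant site in TE-1, 2 differed by at least 5 points in the share of that site, against 20.4% of all such PACs. Both were DLAT PACs, at 677 nt (5.32 points, -4.94 to 15.3) and at 1330 nt (-7.44 points, -16.6 to 1.73). The PAC at 1854 nt, which ends at an annotated transcript end, was listed in TE-1 alone, at 8.99% of DLAT tags under l-lactate and 8.69% under PBS. At these shares it would have stood at 2.97 and 2.77 TPM in KYSE30, under the 3 TPM from which a single site is listed, so that its absence there does not show a difference between the lines.

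PDHA1 was cleaved at 202 nt and at 2030 nt past the stop codon (chrX, plus strand). The distal PAC held 5.66% of PDHA1 tags (4.2% to 7.59%) under l-lactate and 4.79% (3.45% to 6.62%) under PBS in KYSE30, and 14.6% (13.4% to 15.8%) and 12.6% (11.6% to 13.6%) in TE-1. TE-1 exceeded KYSE30 by 8.92 points with l-lactate (6.67 to 10.8) and by 7.77 points in the controls (5.70 to 9.47). In TE-1 the share was 2.02 points higher with l-lactate (0.472 to 3.59), below the 10 points used for a call. Of the 2 genes tested between the control libraries, neither passed 10 points, where 35.7% of 2413 genes did, and for DLAT the PAC at 1854 nt was taken as 0 in KYSE30. From the tags of the dominant sites alone, the distal share was 16.8% and 14% in KYSE30 and 26.3% and 23.9% in TE-1, in the same order.

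**Figure D3:**
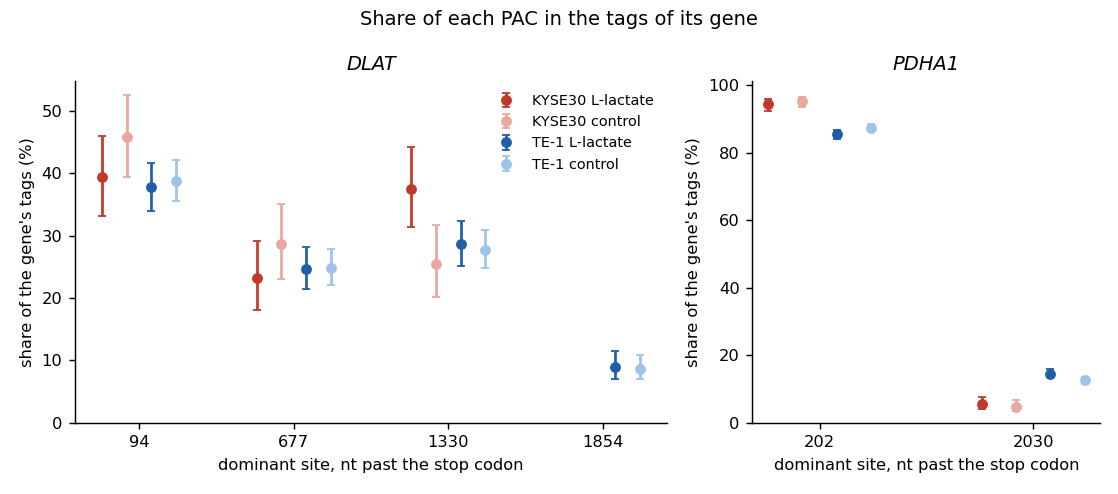
Share of the tags of DLAT (left) and PDHA1 (right) that fell in each of their PACs, in percent, by the distance of the dominant site from the stop codon in nt, with Wilson 95% intervals and 1 point per library. In DLAT the KYSE30 l-lactate point at 1330 nt (37.5%) lies above the control (25.5%) and no point is drawn for KYSE30 at 1854 nt, where the PAC was not listed; in PDHA1 both TE-1 points at 2030 nt lie above both KYSE30 points.

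Taking the 8 genes with a mean of at least 5 TPM, which leaves out LIAS and LIPT2, LIPT1 alone differed by at least 1.5-fold with l-lactate in KYSE30, where 3.94% of 9796 genes did. None of the 8 did so in TE-1, where 4.02% did. The median log2 ratio of the 8 was 0.06 in KYSE30 (5 higher, 3 lower) and -0.05 in TE-1 (3 higher, 5 lower), against 0 and 0.03 over all 9796 genes. Apart from FDX1 and LIPT1, the intervals that did not include 1 were those of PDHB in KYSE30 and FDXR in TE-1, and that of DLD in KYSE30, which began at 1.00. These intervals cover counting error only and are not adjusted for the number of genes. How many of all genes had an interval without 1 was not counted, so these do not set the genes apart. By Fisher's exact test on tags, adjusted over all 9796 genes, 1194 genes were called in KYSE30 and 1964 in TE-1, and none of the 8 in either line.

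In the fit across both lines none of the 8 genes changed with l-lactate, where 0.0204% of genes (2 of 9796) did. The test (limma on log2(TPM + 1) with line as a term, Benjamini-Hochberg over all genes) rests on 1 residual degree of freedom and on the lines as the only replicates. At an unadjusted p under 0.05 it found 1035 genes and again none of the 8. FDX1 had the largest positive difference of the set and LIPT1 the largest negative one, -0.31 (SE 0.25, adjusted p = 0.746).

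**Figure D4:**
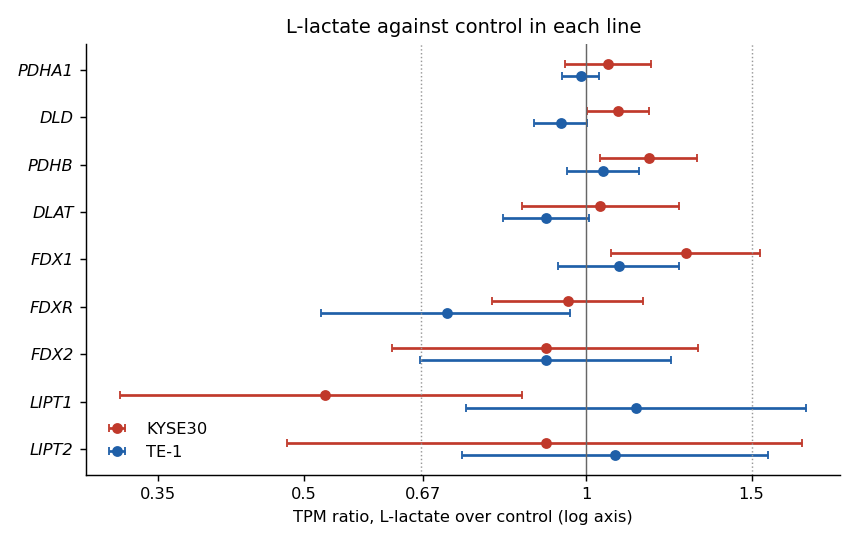
Ratio of TPM with l-lactate to that in the control for 9 genes in KYSE30 (red) and TE-1 (blue) on a log axis, with exact 95% counting intervals; dotted lines mark 1.5-fold either way. FDX1 lies above 1 in both lines (1.28 and 1.08), and LIPT1 in KYSE30 (0.527) alone lies past 1.5-fold.

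Of the 8 genes, 4 differed between TE-1 and KYSE30 (limma, adjusted p under 0.05), as did 73.6% of all genes. In this fit the l-lactate and the control library of a line stood in as its replicates, with 1 residual degree of freedom. The p-values therefore do not measure the spread between separate cultures of a line. PDHA1 was 4.04-fold higher in TE-1 (log2 2.02, SE 0.07, adjusted p = 1.1e-09), and DLAT was 2.51-fold higher (log2 1.33, SE 0.11, adjusted p = 6.6e-07). PDHB was 1.40-fold higher (log2 0.48, SE 0.09, adjusted p = 4.4e-04). It was no longer called when the l-lactate or the control library of TE-1 was left out, in a fit without the treatment term (log2 0.45 or 0.51). The adjusted p of PDHA1, DLAT and FDXR also rose whenever a library was left out. FDXR was lower, at 0.324 times its KYSE30 level (log2 -1.62, SE 0.16, adjusted p = 3.9e-06). FDX1 was not called, with a log2 difference of 0.19 (SE 0.12, adjusted p = 0.167), nor were FDX2, LIPT1 and DLD.

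**Figure D5:**
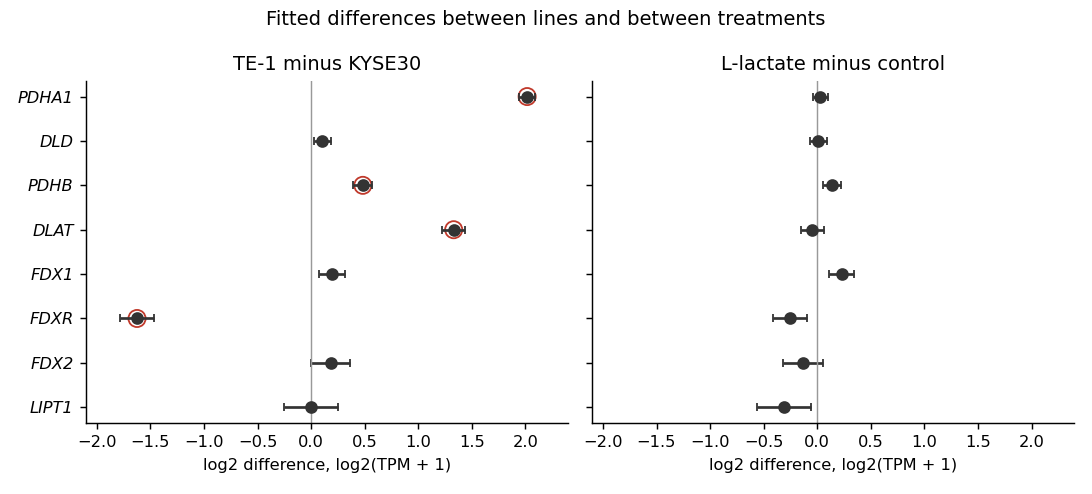
Fitted log2 differences between TE-1 and KYSE30 (left) and between l-lactate and control (right) on the log2(TPM + 1) scale, with SE bars, for the 8 genes with a mean of at least 5 TPM; red circles mark adjusted p under 0.05. PDHA1, DLAT and PDHB lie to the right and FDXR to the left between lines, and no gene is circled for l-lactate.

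The genes around this pathway were described from 4 lists. None of their members was called for l-lactate across the lines. Over all 9796 genes the median log2 difference for l-lactate was 0.02, and between the lines 73.6% were called, 3591 higher and 3619 lower in TE-1. Of the other lipoylated proteins and their partners, 6 of 9 genes passed the level filter (GCSH, DLST, DBT, PDHX, OGDH and BCKDHA), with a median log2 difference of 0.01 for l-lactate, and 2 were higher and 2 lower in TE-1, near the 73.6% of all genes. The highest fitted difference was that of GCSH, the lipoylated H protein of glycine cleavage, at 0.14 (23.7 against 19.8 TPM in KYSE30, 27.4 against 26.8 in TE-1). The lowest was that of OGDH, the E1 subunit of the oxoglutarate dehydrogenase, which was listed at 3.50 TPM in the KYSE30 control and not listed with l-lactate, against 9.80 and 9.62 TPM in TE-1, so that it rests on a value taken as 0.

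Of the regulators of pyruvate dehydrogenase, 5 of 7 passed, with a median of 0.10, and 2 were higher and 3 lower in TE-1, all 5 being called where 73.6% of all genes were. PDK1, a kinase that inactivates PDHA1, was listed at 5.58 against 3.10 TPM in KYSE30 and 10.2 against 7.79 TPM in TE-1. It was past 1.5-fold in KYSE30 and not in TE-1, a difference between the lines that was not tested. The ratios were 1.80 (1.05 to 3.15) and 1.30 (0.951 to 1.79), with overlapping intervals. The KYSE30 control value rests on 23 tags, near the 3 TPM from which a single site is listed. PDK2, a second such kinase, had the lowest difference, -0.25, from 36.8 against 44.6 TPM in KYSE30 and 14.4 against 17.1 TPM in TE-1. Of 13 genes of iron-sulfur cluster assembly, 12 passed with a median of 0.01, and 5 were higher and 4 lower in TE-1, again near the 73.6% of all genes. ISCA1, a late-acting assembly factor, had the lowest log2 ratios of that list, -0.50 in KYSE30 and -0.56 in TE-1 (limma, adjusted p = 0.281 across the lines), and HSPA9, the mitochondrial chaperone, the highest difference across the lines, 0.19. Of 8 genes of mitochondrial fatty acid synthesis, which supplies the octanoyl precursor, 6 passed with a median of 0.06, and 3 were higher and 2 lower in TE-1, against 73.6% of all genes. CBR4, a subunit of the ketoacyl reductase, had the highest difference, 0.51, with 36.2 against 31.9 TPM in KYSE30 and 10.6 against 5.48 TPM in TE-1. HTD2, the dehydratase of the same pathway, had the lowest, -0.34.

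Among 6289 other genes with a mean of at least 20 TPM, the 3 whose levels over the 4 libraries were most like that of FDX1 were CD63, GUSB and RBM4B. Likeness was the largest difference in centred log2(TPM + 1), which was 0.04, 0.05 and 0.05. CD63, for example, was listed at 95.7 and 78.6 TPM in KYSE30 and 106 and 95.6 TPM in TE-1.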

How the data were processed

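Trimmed reads (FASTX-Toolkit) were aligned by the authors to GRCh38 with HISAT2, and sites were called and joined into PACs with CAGEr. They removed sites under 1 TPM and single-site PACs under 3 TPM, joined sites within 24 nt, and joined PACs with TPM above 5 within 500 nt. The deposited values are RPM (called TPM by the authors), the tags of a PAC scaled to a fixed library total and not corrected for length. The median gap between neighbouring low values of a library, refined by least squares on ever larger values, gave the worth of 1 tag, from which tag numbers followed.

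PACs were placed by dominant site on GENCODE 44 genes of the same strand. The genes and lists were chosen with earlier results of these data known. A further list is not reported here. All 10 genes are named, and of the lists those past 1.5-fold in both lines or with the highest and lowest fitted difference. Tests used limma 3.58.1 (R 4.3.3, trend) on log2(TPM + 1) over genes with a mean of at least 5 TPM, with line as a term, since the labels pair the libraries by line, and prior degrees of freedom of 9.57. Other pseudocounts, filters, scalings, shift lengths and positions were tried, and the share of the dominant site, fits on dominant sites only and leaving out a library were added after the data were seen. Functions were tested on simulated data. Ratios have exact conditional intervals, shares Wilson and share differences Newcombe intervals. GENCODE 44, pysam 0.24.0 and SciPy 1.17.1 (Python 3.11.15) were used.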

Additional observations from a re-analysis of the deposited data

Results flagged for a closer look

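Genes of the set with a mean of at least 5 TPM whose level differed with l-lactate in opposite directions in the 2 lines are listed here. Each line has a single library for each condition, and the difference between the lines was not tested. For LIPT1 the log2 ratio was 0.92 higher in TE-1 than in KYSE30. For DLAT it was lower in TE-1 (difference -0.19), as it was for DLD (-0.20) and PDHA1 (-0.10). For DLAT and PDHA1 the counting intervals of both lines included a ratio of 1, so no direction was shown in either. For LIPT1 and DLD the TE-1 interval included it. Over all 9796 genes, 49.8% were higher with l-lactate in KYSE30 and 55.1% in TE-1. How many of all genes went in opposite directions was not counted, so these 4 genes do not stand out by it.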

How the results depend on the processing

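No alternative reversed a called value. At a pseudocount of 5, 128 genes in KYSE30 and 154 in TE-1 differed by 1.5-fold with l-lactate. With no filter there were 941 and 890, with a minimum mean of 20 TPM 97 and 92, from PACs that every library lists 231 and 238, and by Fisher's exact test on tags, which compares single libraries, 1194 and 1964. LIPT1 was the only gene of the set called in KYSE30, and the count was 0 at a pseudocount of 5, at a minimum of 20 TPM, with only PACs in 1 gene and by Fisher's test. With no filter it was 2 in KYSE30 and 1 in TE-1, the added gene being LIAS, taken as 0 where not listed. Across lines, the 2 genes called for l-lactate became 0 with no line term (no replicate block), 0 at a pseudocount of 0.5, 0 with no filter, 1 from dominant sites only (chosen after seeing the data) and 190 at a pseudocount of 5, and the set stayed at 0 in each. The lines pair the libraries. Leaving out each library in turn, which also drops the treatment term, left 4426 (without the KYSE30 control) to 4847 genes differing between lines, and 4595 without KYSE30 with l-lactate.

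For shifts of any length, counts were 546 and 486 PACs with l-lactate in KYSE30 and TE-1, and 573 and 591 between the controls and between the l-lactate libraries, with 3 PACs of the set in KYSE30 and 4 between the l-lactate libraries. By the 10% position, 0 PACs of the set moved in TE-1 and between the controls, and FDX1 moved by 132 nt in KYSE30. Between the l-lactate libraries 1 PAC of the set differed by it, that of FDX1, by -132 nt in TE-1 relative to KYSE30. By the 90% position, 0 moved in any of the 4 comparisons, but that of FDX1 lay at the last base of its PAC in every library and could not move downstream. For distal usage, 673 and 757 genes passed 5 points, 25 and 40 passed 20 points (0 of the set in KYSE30), 591 and 602 passed at a minimum of 1 TPM, and 151 passed in KYSE30 with only 3′ UTR PACs. The edgeR fits planned on whole tags were not run, since the deposited unit is not counts. Depth limits FDX2, LIPT1, LIPT2 and LIAS most, at under 110 tags per library.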
